A study of Homo sapiens with 66 samples.

Results

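The DNA topoisomerases and the tyrosyl-DNA phosphodiesterases were followed as 8 genes, chosen by symbol, among 56948 named genes (57992 gene identifiers) in the counts: TOP2A, TOP2B, TOP1, TOP1MT, TOP3A, TOP3B, TDP1 and TDP2. RNA was sequenced from 11 established human lines of acute myeloid leukemia: OCI-AML3, OCI-AML2, THP-1, MV-4-11, MOLM-13, NOMO-1, HL-60, NB-4, MONO-MAC-6, KASUMI-1 and F-36P. Each line was kept in medium alone (untreated) or in medium with etoposide at its own IC50 for 24 hours, which gave 3 libraries for each of 22 groups, or 66 altogether. Each RNA came from the pooled cells of 3 wells, and the labels do not say whether replicates were separate cultures, so p-values measure the spread between these libraries. Each line derives from a single patient, and the etoposide concentration differed between lines, so line and dose cannot be told apart. The study discarded its etoposide-treated OCI-AML2 libraries after they failed its quality control of the raw sequences. They are given here apart from the other 10 lines.

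Topoisomerases release the torsion of DNA by cutting it and sealing it again, and during the cut they stay bound to the DNA end through a tyrosine. Type II enzymes cut both strands, and etoposide holds TOP2A and TOP2B in the cut state, which leaves breaks with protein attached. TOP2A is made mainly by dividing cells late in the cell cycle, whereas TOP2B is made in dividing and resting cells alike. Type IB enzymes (TOP1 in the nucleus, TOP1MT in mitochondria) and type IA enzymes (TOP3A, TOP3B) cut 1 strand. TDP1 removes trapped TOP1 from the 3′ end of DNA, and TDP2 removes trapped topoisomerase II from the 5′ end.

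The members are protein-coding genes on GRCh38 (gencode 44). On the plus strand lie TOP1 at chr20:41028822-41124487 and TDP1 at chr14:89954939-90044764. On the minus strand lie TOP2A at chr17:40388525-40417896, TOP2B at chr3:25597978-25664909, TOP1MT at chr8:143304384-143359979, TOP3A at chr17:18271428-18315007, TOP3B at chr22:21957025-21982813 and TDP2 at chr6:24649979-24666930. TOP3B has a related copy, TOP3BP1, with 67 reads over all libraries, and exons of PLCG1-AS1 and PPM1F-AS1 overlap TOP1 and TOP3B on the opposite strand, so reads of these pairs are apart only if the counting used strand.

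Reads on genes ranged from 17997404 to 24101670 per library, and mitochondrial genes took from 3.49% to 7.44% of them. The fewest reads of any member in a library were 405, for TOP3A, so counting depth did not limit detection of any member. All 5 myeloid markers (SPI1, CD33, CEBPA, MPO, LYZ) reached at least 1 CPM (reads of a gene scaled to 1000000 reads of the library) in 10 untreated lines and 3 of 5 did in F-36P. F-36P was the line with all 5 erythroid markers above 1 CPM, with a sum of 6107 CPM untreated against at most 15.8 CPM in any other untreated line. CDKN1A, the p53-induced inhibitor of cyclin-dependent kinases, rose in each of the 10 treated lines, by log2 changes from 1.86 in MV-4-11 to 5.46 in OCI-AML3, and by 0.73 in OCI-AML2.

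The start regions of the topoisomerase II genes are shown because TOP2B fell over the lines after etoposide, while TOP2A moved in both directions. Their changes were not tested against each other, and the part of these sequences in the changes was not tested. The regions span 250 bases before to 50 after the RefSeq start on GRCh38.p14, read on the minus strand, at chr17:40417847-40418146 for TOP2A and at chr3:25664858-25665157 for TOP2B. Capitals mark CCAAT (or its reverse complement ATTGG) and TTTGAA (or TTCAAA), which are known from promoters of mitotic genes.
TOP2A: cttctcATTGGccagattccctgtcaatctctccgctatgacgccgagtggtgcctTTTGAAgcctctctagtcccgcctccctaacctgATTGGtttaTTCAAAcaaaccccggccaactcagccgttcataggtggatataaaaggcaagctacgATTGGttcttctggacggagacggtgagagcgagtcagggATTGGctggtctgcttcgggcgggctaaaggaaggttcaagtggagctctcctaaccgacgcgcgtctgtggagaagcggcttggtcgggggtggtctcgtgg
TOP2B: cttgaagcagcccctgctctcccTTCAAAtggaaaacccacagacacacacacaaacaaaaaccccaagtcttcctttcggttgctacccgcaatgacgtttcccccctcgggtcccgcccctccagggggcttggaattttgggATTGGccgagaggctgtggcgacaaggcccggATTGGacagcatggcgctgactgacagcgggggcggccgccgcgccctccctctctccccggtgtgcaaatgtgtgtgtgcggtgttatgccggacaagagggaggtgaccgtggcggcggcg
The TOP2A window held 4 CCAAT matches, which begin at bases -244, -160, -93 and -53 from the start, and 2 TTTGAA matches. The TOP2B window held 2 CCAAT matches, at -105 and -73, and 1 TTTGAA match. A second TOP2B window in the same table, at chr3:25664323-25664622, held 0 of either. Among 35116 windows of this length, 34.6% held at least 1 CCAAT, 0.991% held at least 4, and 15.2% held at least 1 TTTGAA, on either strand and with no overlap between these motifs. Of the 5 other members whose windows were examined (TOP1, TOP3A, TOP3B, TDP1 and TDP2), none held CCAAT and TDP1 held 1 TTTGAA. TOP1MT was not examined.

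Untreated cells of the 11 lines were compared first, on CPM normalised over the 33 untreated libraries. Per kilobase of exon, TOP2A was the member with the highest level, with a median over lines of 91.2 CPM per kb. TOP1, TDP2 and TOP2B followed with medians of 21.6, 21.0 and 20.5 CPM per kb, TOP1MT had 15.7, TDP1 10.9, TOP3A 7.61 and TOP3B 5.51. The union of annotated exons overstates the length of some transcripts. On the longest transcript TOP2A had 102 CPM per kb, and TOP1MT (49.9) and TOP2B (48.8) then came before TDP2 (29.6) and TOP1 (27.1).

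The topoisomerase II genes shared their lowest lines. TOP2A measured 79.7, 116 and 209 CPM in the 3 untreated F-36P libraries (mean 135 ± 66.8, SD, n = 3) and 346, 370 and 258 CPM in those of KASUMI-1 (325 ± 58.7). Means of the other 9 lines lay between 530 CPM ± 80.4 in NOMO-1 and 893 CPM ± 39.6 in MV-4-11, and no library of F-36P or KASUMI-1 reached any of theirs. In the order of levels, KASUMI-1 lay above F-36P (log2 difference 1.26, adjusted p = 5.82e-07) and NOMO-1 above KASUMI-1 (0.71, adjusted p = 0.00134, edgeR quasi-likelihood test). The other 8 pairs of neighbours did not differ beyond their spread, so the order from NOMO-1 up to MV-4-11 is loose.

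TOP2B was lowest in the same lines. It measured 96.6, 145 and 235 CPM in F-36P (159 ± 70.0), 286, 298 and 213 CPM in KASUMI-1 (266 ± 46.4), and 273 CPM ± 31.4 in NOMO-1. The highest level was in MONO-MAC-6, with 817, 670 and 729 CPM (739 ± 74.3), above HL-60 with 489 CPM ± 24.2 (adjusted p = 0.00207). KASUMI-1 lay above F-36P (log2 difference 0.74, adjusted p = 0.000209), while KASUMI-1 and NOMO-1 did not differ beyond their spread (adjusted p = 0.856). F-36P was the lowest of the 11 lines for 17% of 13669 genes with at least 1 CPM, and F-36P and KASUMI-1 were the lowest and next lowest, in that order, for 3.45% of them. TOP2A and TOP2B were the members with that order.

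**Figure D1:**
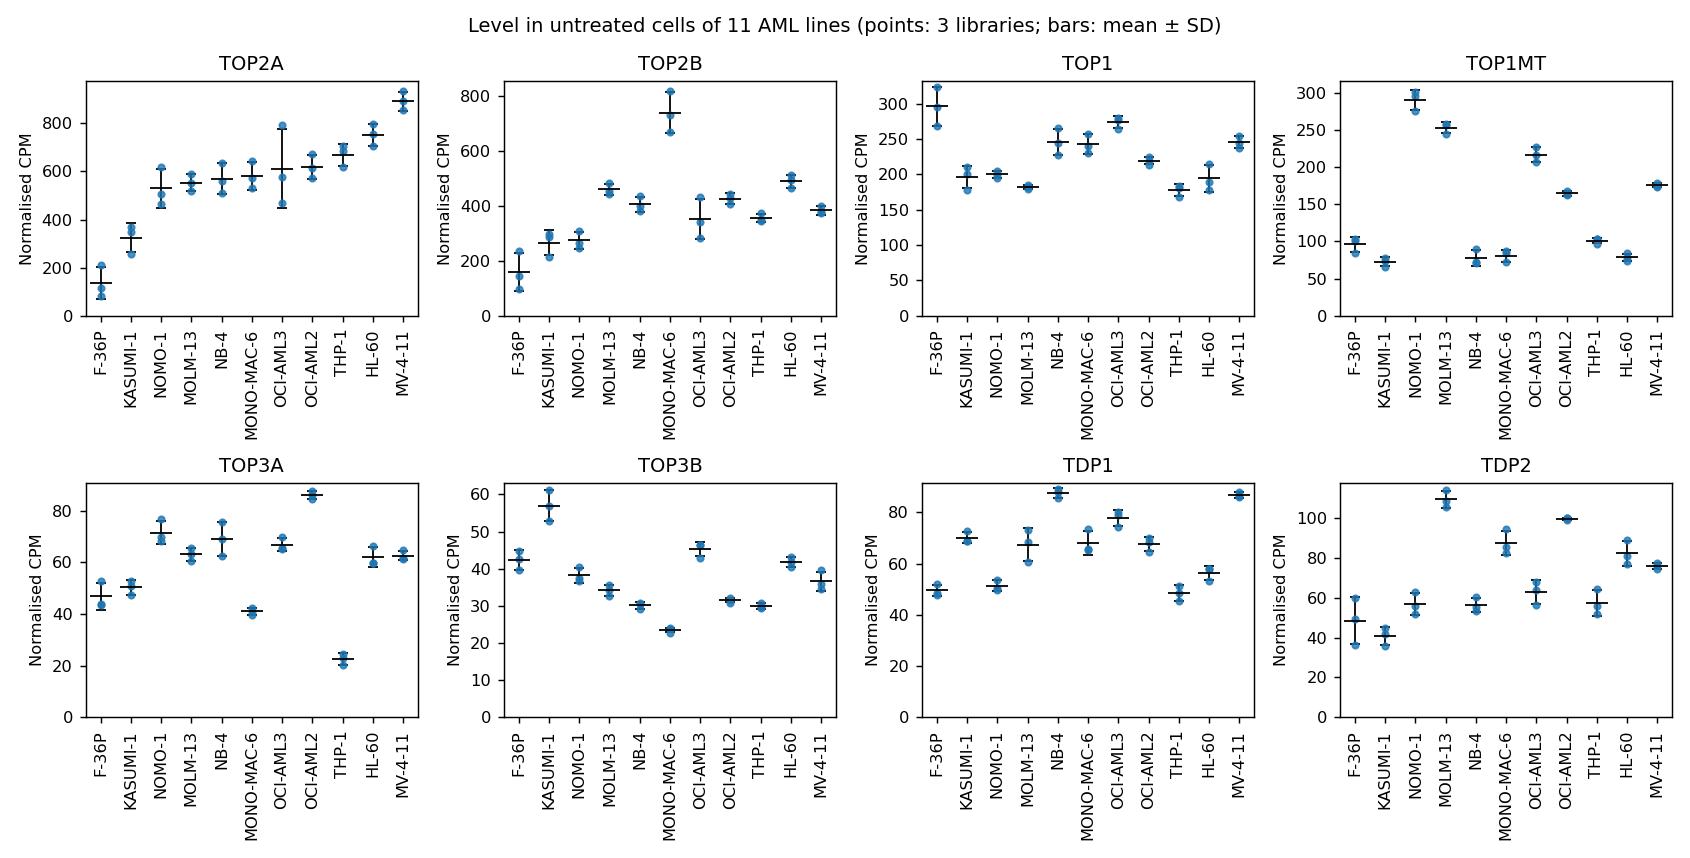
Normalised CPM (y axes, from 0) of each member in untreated cells of the 11 lines (x axes), which are ordered by TOP2A in every panel; points are the 3 libraries and bars the mean ± SD. TOP2A and TOP2B are lowest in F-36P, at 135 and 159 CPM, whereas TOP1 is highest there, at 296 CPM.

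The type I genes had other orders. TOP1 was highest in F-36P (296 CPM ± 27.7) and lowest in THP-1 (177 CPM ± 8.64), a narrow range in which none of the 10 pairs of neighbours differed. TOP1MT had a wide step in its order. NOMO-1 (291 CPM ± 13.4), MOLM-13 (254 ± 7.68), OCI-AML3 (217 ± 10.1), MV-4-11 (176 ± 2.88) and OCI-AML2 (165 ± 3.14) stood above THP-1 (101 ± 3.83), the next line (adjusted p = 6.63e-09), and KASUMI-1 had the lowest level at 72.6 CPM ± 6.03. TOP3A, whose product unlinks recombining DNA together with BLM, RMI1 and RMI2, ranged from 86.0 CPM ± 1.51 in OCI-AML2 to 41.1 CPM ± 1.40 in MONO-MAC-6, with THP-1 apart at 22.6 CPM ± 2.17 (adjusted p = 7.23e-11 against MONO-MAC-6). TOP3B, which works on RNA as well as DNA with TDRD3, was highest in KASUMI-1 (57.0 CPM ± 4.17) and lowest in MONO-MAC-6 (23.5 ± 0.613), and both lines differed from their neighbours.

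The highest line exceeded the lowest by 1.81 times for TDP1 and 2.68 times for TDP2, against 1.67 times for TOP1 and 6.61 times for TOP2A. TDP1 was lowest in THP-1, with 48.4 CPM ± 3.09, and highest in NB-4, with 87.6 CPM ± 1.79. TDP2, the enzyme for trapped topoisomerase II, lay between 40.8 CPM ± 4.43 in KASUMI-1 and 109 CPM ± 4.11 in MOLM-13, with F-36P next to lowest at 48.4 ± 11.7 and not different from KASUMI-1 (adjusted p = 0.0536). Each of the 8 members differed between lines in the test over all 11, as did 99.4% of the 18130 genes tested, so that call says little of the members. Of the 55 pairs of lines, 27 differed for TOP2A, 35 for TOP1 and TOP2B, 40 for TDP2, 42 for TDP1 and TOP3A, 44 for TOP3B and 47 for TOP1MT, where 66.8% of all contrasts of a gene in a pair of lines passed.

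The etoposide IC50 of each line was taken from the text of the study, not from the deposited counts, and it is highest in F-36P and KASUMI-1. The value of F-36P lies above the highest concentration that the study tested, so it comes from extending the fitted curve. Over 11 lines, basal TOP2A and the IC50 (both on a log2(1 + x) scale) had a Pearson's r of -0.91 and a Spearman's rho of -0.45, given as a description. Leaving out F-36P gave an r of -0.59. Leaving out KASUMI-1 as well, since these 2 IC50 values lie farthest from the median, gave -0.03 over 9 lines, so the relation rests on those lines. TOP2B had an r of -0.68 and a rho of -0.57, with r at -0.11 without F-36P and 0.39 without both lines. TDP2 had an r of -0.54 and TOP1 of 0.51, and these came to -0.13 and 0.27 without both lines. The remaining members lay between -0.39 (TDP1) and 0.30 (TOP3B), and the median r of 13669 genes was -0.02. F-36P also differs from the other lines in its erythroid markers and, by the study's culture list, in a colony-stimulating factor (GM-CSF) added to its medium. The part of these in the relation was not tested.

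Etoposide lowered more of the members than it raised. In the 10 lines, 42 of 80 pairs of a member and a line fell and 4 rose at an adjusted p below 0.05 (edgeR quasi-likelihood test over all genes of the line). Of all gene and line pairs tested, 24.4% fell and 27.7% rose by that rule. With the study's added minimum of a 2-fold change, 5 pairs fell and 1 rose, against 3.96% and 11.1% of all pairs. The median log2 change of the 80 pairs was -0.28, and the medians of all genes within the lines lay between -0.03 and 0.09. Without F-36P, 37 pairs fell and 4 rose. Untreated and treated libraries did not overlap in 52 of the 80 pairs. The same held for 59.8% of all gene and line pairs (on CPM scaled by library size).

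**Figure D2:**
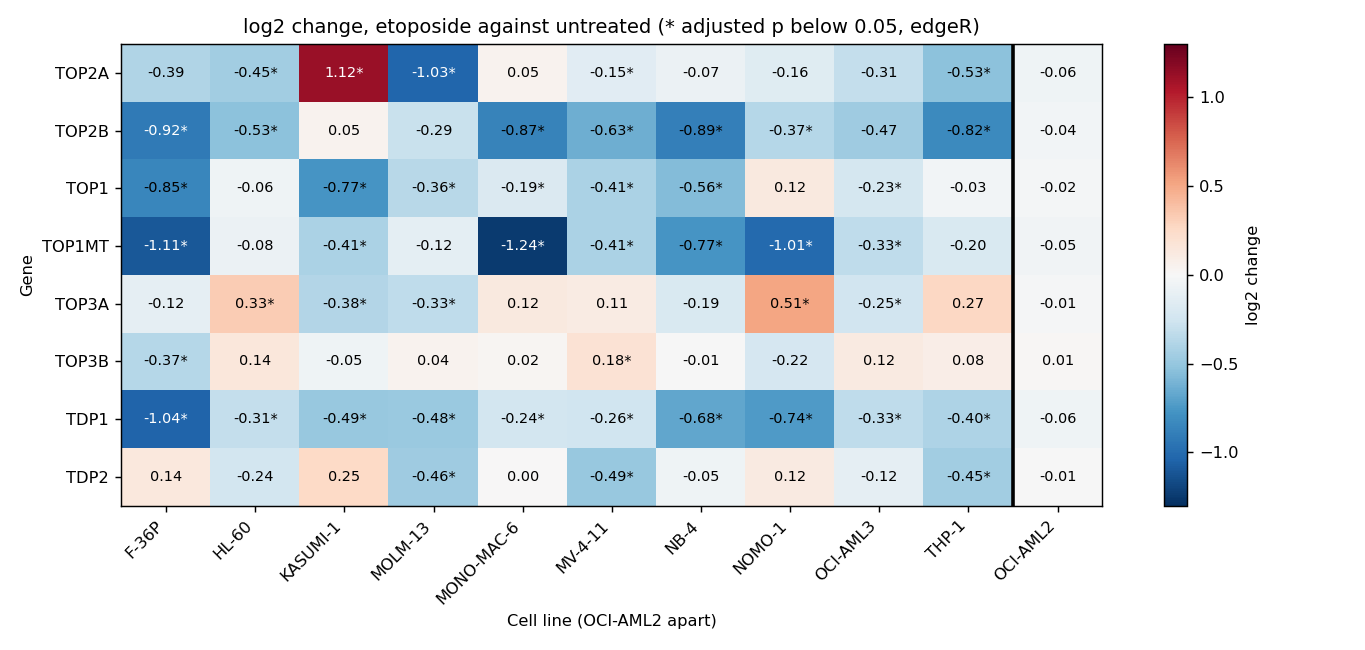
log2 change after etoposide (colour and number) of each member (rows) in each line (columns, OCI-AML2 apart on the right); an asterisk marks an adjusted p below 0.05 by edgeR. TDP1 carries an asterisk in all 10 lines, whereas TOP2A runs from -1.03 in MOLM-13 to 1.12 in KASUMI-1.

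Taking the line as the unit, 4 members fell over the 10 lines. TOP2B had a mean log2 change of -0.54 ± 0.30 (SD over 10 lines, adjusted p = 0.000712, limma), TOP1MT of -0.53 ± 0.42 (adjusted p = 0.00411), TDP1 of -0.46 ± 0.23 (adjusted p = 0.000709) and TOP1 of -0.30 ± 0.28 (adjusted p = 0.0146). These correspond to 68.9%, 69.1%, 72.7% and 81.4% of the untreated level. TOP2A (-0.15 ± 0.56, adjusted p = 0.443), TDP2 (-0.09 ± 0.29), TOP3B (0.03 ± 0.16) and TOP3A (0.04 ± 0.28) did not pass. Among 14080 genes tested in this way, 17.8% fell, 24.5% rose, and the median change was 0.07.

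TOP2B, the topoisomerase II of resting and dividing cells, was lower in 9 of the 10 lines and passed in 7. In MONO-MAC-6 it measured 850, 697 and 759 CPM untreated and 444, 390 and 431 CPM after etoposide. The groups did not overlap, and the log2 change was -0.87 (SE 0.07, adjusted p = 6.52e-07). NB-4 went from 457, 399 and 421 CPM to 251, 216 and 223 CPM (log2 change -0.89, adjusted p = 6.93e-07), and THP-1 from 384, 356 and 357 CPM to 235, 160 and 225 CPM (-0.82, adjusted p = 0.000193). MV-4-11 (-0.63), HL-60 (-0.53) and NOMO-1 (-0.37) also fell with no overlap between groups. Groups of TOP2B thus did not overlap in 6 of 10 lines, near the 59.8% of all gene and line pairs. The call in NOMO-1 was lost without the first untreated library (adjusted p = 0.0943) and in 1 fit of the 60 libraries (0.0919), and that in HL-60 in the latter fit (0.0514). In F-36P the change was -0.92 (adjusted p = 0.0251), but the untreated libraries spread from 97.7 to 257 CPM and overlapped the treated ones, and the adjusted p was 0.0928 without the third etoposide library, 0.0538 with library size alone and 0.0683 with a minimum of 5 CPM. The values that did not pass were -0.47 in OCI-AML3, -0.29 in MOLM-13 and 0.05 in KASUMI-1. In MOLM-13, where replicate numbers were taken to pair the libraries, the fit with the replicate as a block gave -0.33 with an adjusted p of 0.0239. MOLM-13 also passed without the first treated library (-0.48, adjusted p = 0.00386) and with no filter on low counts (-0.32, adjusted p = 0.000187), and OCI-AML3 with DESeq2 (-0.49, adjusted p = 0.0400).

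TOP2A moved in both directions. In KASUMI-1 it rose from 347, 371 and 256 CPM to 732, 541 and 847 CPM, every treated library above every untreated one, with a log2 change of 1.12 (SE 0.18, adjusted p = 0.000403). In MOLM-13 it fell from 529, 499 and 566 CPM to 334, 193 and 252 CPM, again without overlap, by 1.03 on the log2 scale (SE 0.16, adjusted p = 0.000353). Groups of TOP2A did not overlap in 4 of 10 lines, where 59.8% of all gene and line pairs did not. Smaller falls passed in THP-1 (-0.53), HL-60 (-0.45) and MV-4-11 (-0.15), and none of these 3 passed in 1 fit of the 60 libraries (adjusted p = 0.0823, 0.177 and 0.786). In MV-4-11 the groups overlapped, and the call was also lost with library size alone (adjusted p = 0.735), with a minimum of 5 CPM (0.113), without the first untreated library (0.0792) and without the second treated one (0.128). The other 5 lines lay between -0.39 in F-36P and 0.05 in MONO-MAC-6 and did not pass. F-36P passed without the first untreated library (-0.72, adjusted p = 0.0097) and with no filter on low counts (-0.48, adjusted p = 0.00415). The change came to under 2-fold in KASUMI-1 without the third untreated (0.98) or the third treated library (0.97), and in MOLM-13 without the third untreated (-0.99) or the second treated library (-0.85), with a minimum of 5 CPM (-0.98) and in 1 fit of the 60 libraries (-0.97). The adjusted p in these was at most 0.00279. The changes of TOP2A differed between the 10 lines (F = 6.16, adjusted p = 1.90e-05), as did those of 74.5% of the 19974 genes tested.

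**Figure D3:**
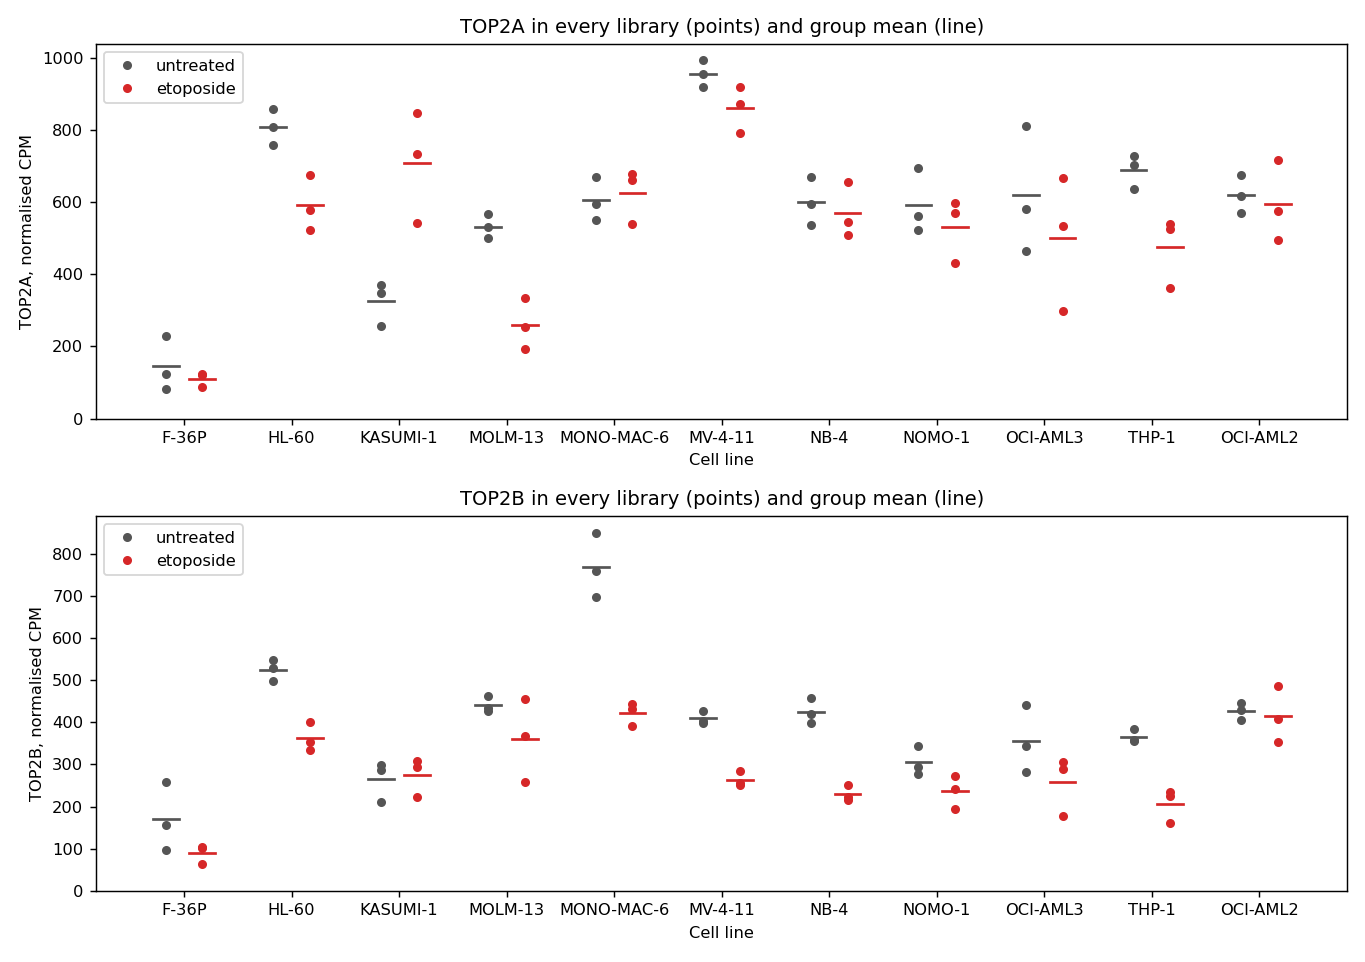
Normalised CPM (y axes, from 0) of TOP2A (top) and TOP2B (bottom) in each of the 66 libraries (points) with group means (lines), untreated in grey and etoposide-treated in red. For TOP2A the treated libraries lie above the untreated ones in KASUMI-1 and below them in MOLM-13, and for TOP2B they lie below in MONO-MAC-6, NB-4, MV-4-11, HL-60, NOMO-1 and THP-1.

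The 16 genes of late cell cycle and mitosis, chosen for their known role, were set beside these values. Their median log2 change was highest in KASUMI-1 (0.39, with 11 of 16 up and 1 down, against 31.5% and 28.6% of all genes there) and lowest in MOLM-13 (-1.23, with 16 of 16 down, against 28.1%), the same lines in which TOP2A moved most. MKI67, the proliferation antigen, changed by 1.13 in KASUMI-1 and by -1.55 in MOLM-13. CDC20, which starts anaphase, fell in both (-1.01 and -1.49). Over the 10 lines, TOP2A and this median had an r of 0.88 and a rho of 0.82 (0.71 over the 8 lines without KASUMI-1 and MOLM-13), whereas TOP2B had an r of 0.14. TDP2 came next to TOP2A, with an r of 0.66 and a rho of 0.52 (r of 0.33 over those 8 lines). The remaining members had an r between -0.32 (TOP1MT) and 0.13 (TDP1). These correlations are descriptions, since both values come from the same libraries. For 12 of the 16 genes the promoter table held 14 windows, all 14 with a CCAAT match and 8 with both motifs, where 34.6% of all windows held CCAAT and 5.9% held both.

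TOP2A and TOP2B varied together between replicates of a group. Their deviations from the group means (log2, 66 libraries in 22 groups) had an r of 0.97, and the SD of these deviations was 0.25 for TOP2A and 0.22 for TOP2B, against 0.06 for TDP1. They also went with the log2 ratio of reads on coding genes with transcripts of at least 6000 bases to those on genes with transcripts under 2000 bases (r = 0.75 and 0.73), as did TOP1 (0.76) and TDP2 (0.60), while TOP1MT (-0.75) and TOP3B (-0.56) went against it. With the deviations of TOP2B, TDP2 had an r of 0.87, TOP1 of 0.63, TDP1 of -0.03, TOP3A of -0.51, TOP1MT of -0.54 and TOP3B of -0.58. In F-36P the untreated library with the highest ratio (0.65, against 0.24 and 0.30) had the highest TOP2A and TOP2B. The ratio went from 0.26 to 0.09 in MOLM-13, from 0.40 to 0.35 in KASUMI-1 and from 0.71 to 0.85 in MONO-MAC-6 between untreated and treated means. The part of the ratio in the changes was not tested.

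The quotient of TOP2A to TOP2B within a library had a small spread, with a mean SD within untreated groups of 0.05 on the log2 scale. Per kilobase of exon, untreated cells held 4.13 times as much TOP2A as TOP2B (geometric mean over 11 lines), from 2.30 in MONO-MAC-6 to 6.82 in MV-4-11, and 1.95 times as much per length of the longest transcript. After etoposide the quotient was higher in 9 of 10 lines, with a mean log2 difference of 0.38 ± 0.52 (SD over lines, not tested), from -0.74 in MOLM-13 to 1.07 in KASUMI-1. TOP1 to TOP1MT averaged 1.09 and TOP3A to TOP3B 1.23 per kilobase of exon in untreated cells, and 0.432 and 0.962 on the longest transcript, so which of these genes has the higher level depends on the length used. TDP1 to TDP2 was 0.462, and after etoposide it was lower in 8 of 10 lines, with a mean log2 difference of -0.37 ± 0.47.

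TDP1, which frees 3′ ends from TOP1, was the member that passed in every line. Its untreated and treated libraries did not overlap in any of the 10 lines, as was so for 59.8% of all gene and line pairs (on CPM scaled by library size). F-36P had the largest fall, from 52.5, 52.1 and 52.5 CPM to 27.4, 22.7 and 26.1 CPM (log2 change -1.04, SE 0.12, adjusted p = 5.60e-05). NOMO-1 went from 56.5, 59.8 and 55.8 CPM to 35.7, 31.9 and 35.7 CPM (-0.74, adjusted p = 3.29e-05) and NB-4 from 92.3, 89.6 and 94.2 CPM to 62.0, 56.6 and 54.0 CPM (-0.68, adjusted p = 9.88e-06). In F-36P the change came to under 2-fold with library size alone (-0.80), with a minimum of 5 CPM (-0.89) without the second treated library (-0.97) and in 1 fit of the 60 libraries (-0.999). The other 7 lines fell by between 0.24 in MONO-MAC-6 and 0.49 in KASUMI-1. With scaling to library size alone the adjusted p rose above 0.05 in HL-60 (0.0969), MONO-MAC-6 (0.0865), MV-4-11 (0.0567) and THP-1 (0.0532). Leaving out 1 library raised it to up to 0.0949 in HL-60 and up to 0.150 in THP-1, both without the first untreated library.

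TDP2 fell in 3 of 10 lines, where 24.4% of all gene and line pairs fell. It went from 80.8, 83.2 and 79.7 CPM to 59.0, 57.7 and 56.7 CPM in MV-4-11 (log2 change -0.49, adjusted p = 3.25e-07) and from 104, 102 and 109 CPM to 85.2, 68.2 and 75.7 CPM in MOLM-13 (-0.46, adjusted p = 0.00127). The fall in THP-1 (-0.45, adjusted p = 0.0190) was lost when single libraries were left out (adjusted p up to 0.172, without the second untreated one). In KASUMI-1 the treated libraries (46.6, 48.4 and 50.9 CPM) lay above the untreated ones (44.8, 41.9 and 35.6 CPM), with a log2 change of 0.25 and an adjusted p of 0.0540. That change passed with library size alone (0.43, adjusted p = 0.00538), with a minimum of 5 CPM (0.35, adjusted p = 0.0163), without the first untreated library (0.32, adjusted p = 0.0370) and in 1 fit of the 60 libraries (0.30, adjusted p = 0.0338). The changes differed between lines (adjusted p = 0.000287, edgeR quasi-likelihood F test), as did those of 74.5% of the 19974 genes tested. That call for TDP2 was lost without replicate 2 of every line (adjusted p = 0.0566).

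TOP1MT, the mitochondrial enzyme, fell in 7 of 10 lines and by over 2-fold in 3. It went from 74.7, 87.3 and 90.3 CPM to 34.7, 37.5 and 34.5 CPM in MONO-MAC-6 (log2 change -1.24, SE 0.08, adjusted p = 7.84e-08), from 105, 107 and 92.3 CPM to 44.6, 51.3 and 45.5 CPM in F-36P (-1.11, adjusted p = 3.56e-05) and from 309, 330 and 338 CPM to 176, 138 and 171 CPM in NOMO-1 (-1.01, adjusted p = 6.38e-06). In each, the lowest untreated library lay above the highest treated one. Groups of TOP1MT did not overlap in 7 of 10 lines, where 59.8% of all gene and line pairs did not. The change came to under 2-fold with library size alone in F-36P (-0.86) and NOMO-1 (-0.95), with a minimum of 5 CPM in F-36P (-0.95), and in NOMO-1 without the third untreated (-0.99) or the second treated library (-0.92). The call in KASUMI-1 (-0.41) was lost with library size alone (-0.24, adjusted p = 0.0723). HL-60 (-0.08), MOLM-13 (-0.12) and THP-1 (-0.20) did not pass, and in THP-1 the value without the second treated library was -0.39 (adjusted p = 0.00195).

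TOP1, the nuclear enzyme and target of camptothecins, also fell in 7 lines, none by over 2-fold. F-36P went from 272, 316 and 355 CPM to 184, 162 and 179 CPM (log2 change -0.85, adjusted p = 0.000221), and KASUMI-1 from 210, 200 and 177 CPM to 119, 103 and 123 CPM (-0.77, adjusted p = 0.000115). The falls in NB-4 (-0.56), MV-4-11 (-0.41), MOLM-13 (-0.36), OCI-AML3 (-0.23) and MONO-MAC-6 (-0.19) were smaller. The call in MONO-MAC-6 was lost with library size alone (adjusted p = 0.212) and in 1 fit of the 60 libraries (0.0566), and that in OCI-AML3 without the first (0.0594) or the second untreated library (0.0570). HL-60 (-0.06), THP-1 (-0.03) and NOMO-1 (0.12) had overlapping groups and did not pass.

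TOP3A rose in 2 of 10 lines and fell in 3, where 27.7% and 24.4% of all gene and line pairs did. It rose in NOMO-1, from 78.0, 85.4 and 76.6 CPM to 119, 117 and 106 CPM (log2 change 0.51, adjusted p = 0.000368), and in HL-60 (0.33, adjusted p = 0.0180). It fell in KASUMI-1 (-0.38, adjusted p = 0.00301), MOLM-13 (-0.33, adjusted p = 0.00507) and OCI-AML3 (-0.25, adjusted p = 0.0255). The changes differed between lines (F = 11.4, adjusted p = 6.34e-09), as did those of 74.5% of the 19974 genes tested. The calls in HL-60 and OCI-AML3 were lost when single libraries were left out (adjusted p up to 0.0881 in HL-60, without the third untreated one, and 0.106 in OCI-AML3, without the second treated one), and the call in KASUMI-1 with library size alone (-0.20, adjusted p = 0.0615). With the replicate as a block, in lines where the numbers were taken to pair the libraries, TOP3A also passed in MONO-MAC-6 (0.12, adjusted p = 0.0245) and NB-4 (-0.19, adjusted p = 0.0214). The pairing is least clear in MONO-MAC-6. With library size alone it passed in MONO-MAC-6 (0.24, adjusted p = 0.00313) and MV-4-11 (0.24, adjusted p = 0.00196), and in 1 fit of the 60 libraries in THP-1 (0.31, adjusted p = 0.00594). TOP3B moved least, between -0.37 in F-36P (adjusted p = 0.0326) and 0.18 in MV-4-11 (adjusted p = 0.0462). Both calls were lost under other settings, and the adjusted p reached 0.462 in F-36P with library size alone and 0.207 in MV-4-11 without the second untreated library. In NOMO-1 (-0.22, adjusted p = 0.0548) it passed under 4 alternatives, among them DESeq2 (-0.26, adjusted p = 0.0425).

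In OCI-AML2 the 8 members changed by between -0.06 (TDP1) and 0.01 (TOP3B), and none passed. Over all 13604 genes of that line edgeR called 3 (0.0221%) at an adjusted p below 0.05 and 0 (0%) with the 2-fold minimum, where DESeq2 called 16 and the exact test of edgeR 20. The 3 called by edgeR all rose, and both p53 targets, CDKN1A and MDM2, were among them. At an unadjusted p below 0.05 there were 456 genes, 0 of them members.

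Genes that work with the members were described from lists set by function. Of 5 partners of topoisomerase III, TDRD3, the scaffold of TOP3B, had the largest fall over 10 lines (-0.52 ± 0.32, adjusted p = 0.00206), FMR1 had -0.22 (adjusted p = 0.149), RMI1 0.15 (adjusted p = 0.407) and RMI2 0.38 (adjusted p = 0.0575, below 0.05 under 5 of 9 alternatives). None of the 5 rose and 1 fell, with a median of 0.05 against 0.07 over all genes. In single lines, 11 of 50 pairs rose and 15 fell, where 27.7% and 24.4% of all pairs did. In MOLM-13 5 of 5 fell (28.1% of all genes there) and in KASUMI-1 4 of 5 rose (31.5%).

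Of 13 genes that process cut DNA with protein attached or seal the break, 3 rose, 4 fell and 6 did not pass over the 10 lines, with a median of 0.09, where 24.5% of all genes rose and 17.8% fell. LIG3, the ligase of mitochondrial and single-strand repair, fell and was lower in 10 of 10 lines (-0.61 ± 0.21, adjusted p = 0.000107), and PARP1, the sensor of strand breaks, had -0.31 ± 0.18 (adjusted p = 0.00197). XRCC1, the scaffold that binds both LIG3 and PARP1, rose and was higher in 10 of 10 lines (0.62 ± 0.35, adjusted p = 0.000706), while RBBP8, which starts the trimming of broken ends, ranged from -1.17 to 1.23 (mean 0.35, adjusted p = 0.158). Of the 16 G2/M genes 7 fell and none rose over the lines, with a median of -0.17, against the same 17.8% and 24.5% of all genes. CDC20 (-0.93 ± 0.54) and CENPF (-0.85 ± 0.65) were lowest, and UBE2C (0.19 ± 0.56, adjusted p = 0.344) and CDK1 (0.23 ± 0.46, adjusted p = 0.168) highest. As means over the lines both p53 targets rose, CDKN1A by 3.32 ± 1.02 and MDM2, the ligase that degrades p53, by 0.68 ± 0.93 (adjusted p = 0.0460, lost under 2 of 9 alternatives). CDKN1A was higher in 10 of 10 lines, whereas MDM2 was higher in 8 and lower in 2, from -0.27 to 2.58. In single lines, 15 of 20 pairs of these genes and a line rose and 1 fell, in NB-4, where 27.7% and 24.4% of all pairs did.

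By Pearson's r of basal log2 CPM over 11 lines, among 10756 genes that averaged 5 CPM or more, the gene most like TOP2A was KIF15, a mitotic kinesin (r = 0.99). SUZ12 was also among the closest (0.96). TOP2B was most like TMX1 (0.95), TOP1 like MADD (0.91), TOP1MT like SCIMP (0.96), TOP3A like LLGL1 (0.93), TOP3B like CRKL (0.93), TDP1 like EIF3A (0.91) and TDP2 like ATXN1 (0.96). By the change after etoposide over 10 lines, among 11044 genes, TOP2A was most like ARRDC1-AS1 (0.97), HPF1 (0.96) and KIFBP (0.95), TOP2B like EEIG2 and PEX2 (both 0.92) and SNHG14 (0.90), and TDP2 like GORAB (0.97), ZNF823 and WDR19 (both 0.96). These are the highest of many correlations over few lines.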

How the data were processed

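RNA of 66 libraries was sequenced on an Illumina HiSeq 2000 from stranded poly(A) libraries. The authors aligned the reads with STAR 2.5.3a to GRCh38.p7 and deposited 1 table of raw read counts per library, on gencode 25; the strand setting of the counting is not given in the sources used here. Totals were 17997404 to 24101670 reads on genes. Symbols and positions came from gencode 44, and 45 identifiers of the Y pseudoautosomal region, with 0 reads, were left out. The etoposide IC50 values are the study's own and enter only the correlations of level with IC50.

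Counts were tested within each line with edgeR 4.0.16 (TMM, filterByExpr with a minimum count of 10, quasi-likelihood test, Benjamini-Hochberg over all genes). The mean change over 10 lines was tested with limma 3.58.1 on log2 CPM (prior count 2, at least 1 CPM), and the difference of change between lines and the basal levels with edgeR. CPM are normalised within a line beside changes and over all untreated libraries beside basal levels, so the same library has slightly different values. DESeq2 1.42.0, the exact test, other scalings, filters and left-out libraries were alternatives. Named were all 8 members and, of each other list, the 2 genes with the lowest and the 2 with the highest mean change; genes were also named by the highest Pearson correlation with a member (1 such gene is not reported here), and MKI67 was named after its values were seen. The ratio of long to short transcripts was also chosen after the data were seen. The members and lists were chosen with earlier results of these data known.

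On simulated data for MV-4-11, 194 of 200 genes changed by a log2 value of 1 were recovered, and 35 of 200 at 0.5. The simulation gave every gene 1 fixed dispersion that was not estimated from these libraries. These shares therefore do not measure the sensitivity in MV-4-11, where 63.9% of 13998 genes passed at an adjusted p below 0.05 (edgeR quasi-likelihood test). Deviations of same-numbered libraries correlated above 0.1 for every number in NB-4, OCI-AML2, MONO-MAC-6 and MOLM-13 (lowest 0.107), where numbers were taken to pair libraries. In MONO-MAC-6, which had that lowest value, not every untreated library correlated most with the treated one of its own number. In MV-4-11 each did, but its lowest value was 0.084, so that line was not taken as paired.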

Additional observations from a re-analysis of the deposited data

Results flagged for a closer look

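The change of TOP2A in KASUMI-1 (log2 change 1.12) stood apart from the other 9 lines, the next of which was at 0.05. The gap was 0.498 of the whole range, above Dixon's 95% critical value for 10 values. Both ends of the 8 members were examined, 16 in all, and chance marks about 1 in 20 groups.

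The changes of all 8 members differed between the 10 lines (edgeR quasi-likelihood F test), as did 74.5% of all genes. F was 16.8 for TOP1MT, 13.3 for TOP1, 11.4 for TOP3A, 11.1 for TDP1, 6.16 for TOP2A, 4.70 for TDP2, 3.70 for TOP3B and 2.61 for TOP2B.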

How the results depend on the processing

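The falls of TOP2B, TOP1MT, TDP1 and TOP1 over the 10 lines kept their direction and stayed below an adjusted p of 0.05 under each of the 9 alternatives run. The number of pairs that fell by over 2-fold (5) was 2 with library size alone and with a minimum of 5 CPM, 3 in 1 fit of the 60 libraries and without F-36P (an alternative chosen after seeing the data), 42 with no fold minimum, and 3 to 6 when single libraries were left out. Those that rose by over 2-fold (1) were 4 with no fold minimum and 0 to 1 with single libraries left out, and those that rose at any size (4) were 7 with library size alone and with 5 CPM, and 2 to 4 with libraries left out. Library size alone moved the median change of all genes in F-36P from 0.09 to 0.34, in NB-4 from 0.01 to 0.21 and in KASUMI-1 from 0.03 to 0.20. With a replicate block, calls in lines taken as paired were gained for TOP2B in MOLM-13 (-0.33) and TOP3A in MONO-MAC-6 (0.12) and NB-4 (-0.19), and no other call of a member changed there. In lines not taken as paired, the block ended calls in F-36P (TOP2B -0.83, TOP3B -0.38) and OCI-AML3 (TOP1 -0.23, TOP3A -0.25).

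Signs reversed only in values that did not pass. With library size alone these were TOP3A in F-36P (0.13) and NB-4 (0.011), TOP1 in HL-60 (0.045) and THP-1 (0.026), TOP1MT in HL-60 (0.024), TOP3B in KASUMI-1 (0.12) and NB-4 (0.20), and TOP2A (0.13) and TDP2 (0.15) in NB-4. With 5 CPM they were TOP3A in F-36P (0.038), TOP3B in KASUMI-1 (0.038) and NB-4 (0.059), and TDP2 in NB-4 (0.012). In 1 fit of 60 libraries they were TOP3B in NB-4 (0.042) and TOP1 in THP-1 (0.010). With no filter they were TOP2B in KASUMI-1 (-0.0063) and TDP2 in MONO-MAC-6 (-0.0047), the latter also with RLE (-0.0056) and DESeq2 (-0.0057). With single libraries left out, TDP2 ranged from -0.098 to 0.25 in F-36P, -0.046 to 0.062 in MONO-MAC-6 and -0.22 to 0.036 in OCI-AML3, TOP1 from -0.12 to 0.031 in HL-60 and -0.065 to 0.096 in THP-1, and TOP2A from -0.72 to 0.010 in F-36P, -0.022 to 0.15 in MONO-MAC-6 and -0.18 to 0.0038 in NB-4. TOP2B ranged from -0.089 to 0.18 in KASUMI-1, and TOP3B from -0.047 to 0.15 in MOLM-13, -0.0078 to 0.054 in MONO-MAC-6, -0.047 to 0.048 in NB-4 and -0.0057 to 0.18 in THP-1. With 1 replicate number of every line left out, the mean change of TOP3B over lines ranged from -0.0092 to 0.078. F of the difference between lines then ranged from 2.40 to 5.69 for TDP2 and from 1.59 to 3.53 for TOP3B, and both calls were lost without replicate 2.

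The r with IC50 without F-36P was 0.020 for TOP1, -0.40 for TOP1MT, -0.59 for TOP2A, -0.11 for TOP2B, -0.35 for TOP3A, 0.26 for TOP3B and -0.014 for TDP1. With KASUMI-1 also left out it was 0.27 for TOP1, -0.19 for TOP1MT, -0.032 for TOP2A, 0.39 for TOP2B, -0.39 for TOP3A, -0.41 for TOP3B, -0.11 for TDP1 and -0.13 for TDP2. On the untransformed IC50 it was -0.22 for TOP1MT, -0.90 for TOP2A, -0.18 for TOP3A, 0.23 for TOP3B, -0.42 for TDP1 and -0.40 for TDP2. On the longest transcript the quotients, untreated and treated, were 1.95 and 2.47 for TOP2A to TOP2B, 0.432 and 0.502 for TOP1 to TOP1MT, 0.962 and 0.970 for TOP3A to TOP3B and 0.550 and 0.434 for TDP1 to TDP2. The cause of these shifts was not tested.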
